A study of Platynereis dumerilii with 97 samples.

Results

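The comparison set 10 single embryos of the marine annelid Platynereis dumerilii labelled 85-94 h after fertilization against 10 labelled 75-84 h, 1 embryo for each hour, out of 97 embryos in the whole time course. Members were chosen by the labelled age alone, 5100 to 5640 min and 4500 to 5040 min, and transcripts were the 10908 identifiers that begin with PT_v1_tr_. All 20 are whole embryos from several matings of a male with a female, kept at 18 °C, and the labels give no strain, genotype, sex or treatment. The labels do not say which embryos shared parents. No 2 embryos had the same hour, so the spread within a window holds 10 h of development as well as differences between single animals.

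Embryos of these ages are usually staged as nectochaetes, the segmented larvae in which paired parapodia with chaetae, a head with eyes and antennae, and a gut are formed. During this phase the larva passes from swimming with ciliary bands towards crawling with its trunk appendages, while yolk laid down in the egg is still being used. The files pair no identifier with a gene name, so the stage could not be checked against marker genes and transcripts are given by identifier alone, with no role. RNA was measured by CEL-Seq, which tags and amplifies the 3' ends of polyadenylated RNA, and levels are given as CPM, an embryo's count of a transcript relative to its summed transcript counts. In whole embryos fewer cells that hold an RNA and less RNA per cell cannot be told apart.

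Transcript totals were 247000 to 752933 counts at 85-94 h, against 359964 to 795394 at 75-84 h, and detected transcripts numbered 2808 to 4778 at 85-94 h, against 3167 to 5263 at 75-84 h. Of the 10908 transcripts, 9758 had a count in the 20 embryos and 657 had one in all 20. The 2863 that passed the filter on low counts were tested, and they held 92.8% of the transcript counts. The library labelled 89 h stood apart in its ratio to the spike-ins (11.7 transcript counts per spike-in count, against 5.79 to 8.33 in the other 9 of that window), and the library labelled 95 h, just outside the windows, stood apart in the transcripts described next.

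Between 75 and 94 h a small set of transcripts changed steeply with the hour. Over the 20 embryos 7 of 2863 transcripts had a slope on the labelled hour that passed the test, which is 0.244% of those tested (edgeR quasi-likelihood test, Benjamini-Hochberg adjusted p under 0.05). There was 1 rise, PT_v1_tr_06304, which is 0.0349% of those tested, and there were 6 falls, which is 0.21%. Falls were PT_v1_tr_02264, PT_v1_tr_08847, PT_v1_tr_08844, PT_v1_tr_08845, PT_v1_tr_07436 and PT_v1_tr_03668. Set as windows, 85-94 h over 75-84 h, the same counts gave 3 falls, which is 0.105% of those tested, and no rise. All 3 were among the 7. At an unadjusted p under 0.05 the window test held 77 transcripts (2.69%), 12 higher (0.419%) and 65 lower (2.27%) at 85-94 h. The DESeq2 test called 21 at an adjusted p under 0.05, 3 higher and 18 lower. Of 9758 transcripts with a p in that test, 257 were at an unadjusted p under 0.05. Its adjustment can leave out transcripts of low mean count, so 9758 may not be the number adjusted over.

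**Figure D1:**
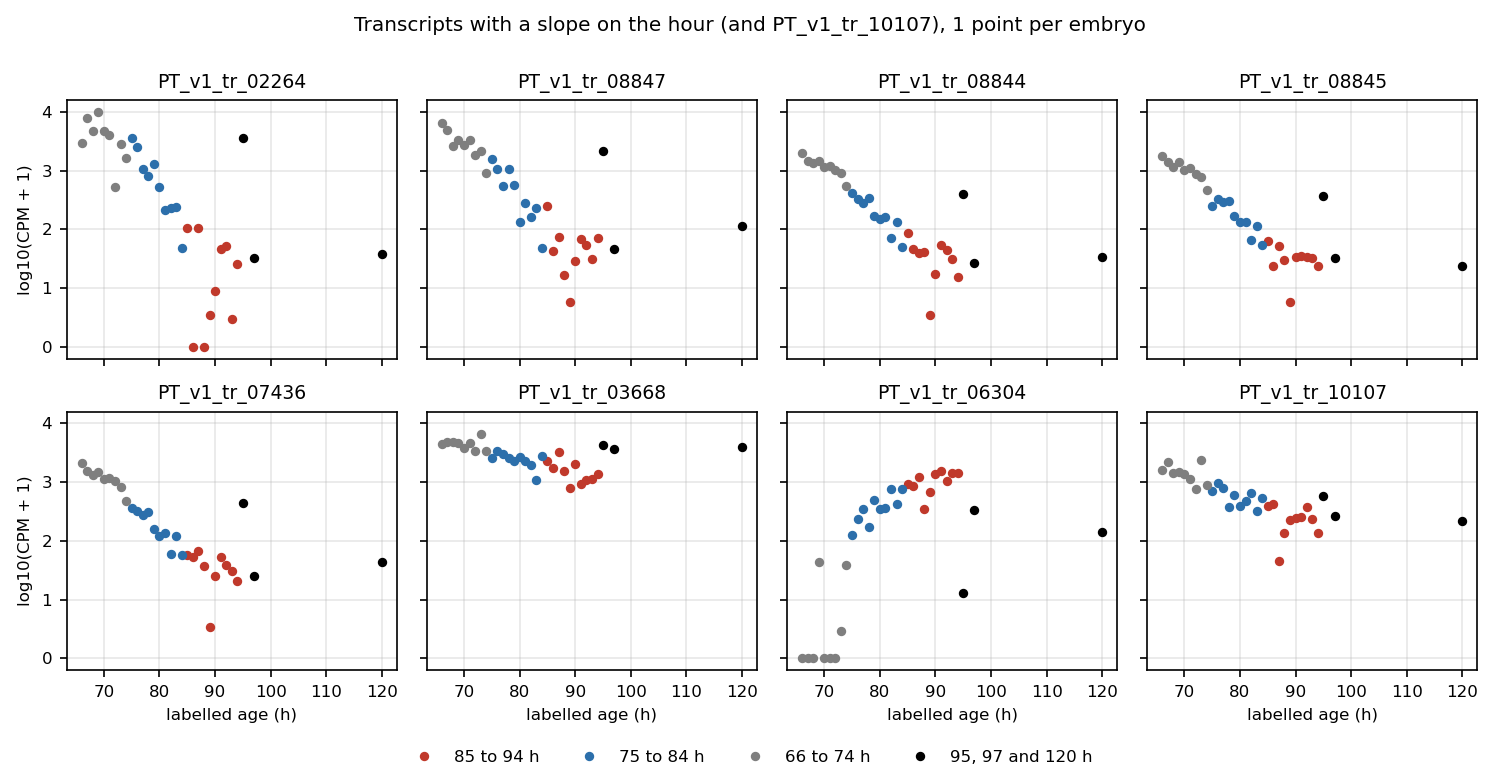
Level of the 7 transcripts with a slope on the hour and of PT_v1_tr_10107, which did not pass, in each embryo from 66 h on, as log10(CPM + 1) against the labelled age in hours; each point is 1 embryo. The 5 steepest falls run down through the 75-84 h embryos, with lower levels at 85-94 h, PT_v1_tr_06304 runs the other way, and the library labelled 95 h lies apart from its neighbours at 3521 CPM for PT_v1_tr_02264 and 11.7 CPM for PT_v1_tr_06304.

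The steepest fall was that of PT_v1_tr_02264. It was at 0 CPM in the lowest embryo, 16.7 in the median and 103 in the highest at 85-94 h, against 47.2, 670 and 3618 CPM at 75-84 h. Only the lowest embryo of the earlier window, labelled 84 h, reached into the range of the later one, and the libraries labelled 86 and 88 h had no count. Means were 34.0 ± 40.8 CPM at 85-94 h and 1057 ± 1162 CPM at 75-84 h (SD, n = 10 each), and the log2 change between windows was -5.05 (SE 0.90, adjusted p = 0.01845, edgeR). Its slope of -0.41 log2 units per hour (SE 0.055, adjusted p = 0.0001603, edgeR) is a halving in 2.46 h. Hour by hour the earlier window began at 3618 CPM at 75 h and 2510 CPM at 76 h, and had 216 CPM at 81 h and 47.2 CPM at 84 h.

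PT_v1_tr_08847 fell as well, to lower levels in most embryos. Its lowest, median and highest levels were 4.91, 47.9 and 251 CPM at 85-94 h, against 47.2, 413 and 1584 CPM at 75-84 h. The windows overlapped, since the library labelled 85 h, at 251 CPM, lay above 4 embryos of the earlier window. Means were 63.7 ± 69.8 CPM at 85-94 h and 566 ± 509 CPM at 75-84 h (SD, n = 10 each), a log2 change of -3.24 with an SE of 0.60 (edgeR, adjusted p = 0.01845). Per hour the level fell by 0.28 log2 units (SE 0.038, adjusted p = 0.0001603, edgeR), a halving in 3.63 h.

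A trio of transcripts, PT_v1_tr_08844, PT_v1_tr_08845 and PT_v1_tr_07436, had similar levels in most embryos. The highest of the 3 counts in an embryo was 1.27 times the lowest in the median embryo and at most 2.29 times (16 against 7 counts, 86 h), and at 75 h the 3 stood at 412, 246 and 365 CPM. Their counts summed over the 20 embryos were 1514, 1353 and 1396. No sequence was at hand to check whether the 3 share reads, so it is not known whether their calls are independent of each other. PT_v1_tr_08847, whose identifier lies close to 2 of them, had its own level and is not part of the trio.

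In at least 8 of 10 embryos of the later window each of the 3 lay below every embryo of the earlier one. PT_v1_tr_08845 had 4.91, 32.2 and 61.6 CPM as lowest, median and highest level at 85-94 h, against 52.8, 150 and 327 CPM at 75-84 h. Ranges met only through the library labelled 85 h, at 61.6 CPM, and that labelled 84 h, at 52.8 CPM. Its log2 change was -2.60 (SE 0.54, adjusted p = 0.04879, edgeR), with means of 32.5 ± 15.6 CPM at 85-94 h and 183 ± 102 CPM at 75-84 h (SD, n = 10 each).

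The other two members of the trio did not pass the window test. PT_v1_tr_08844 averaged 37.0 ± 23.6 CPM at 85-94 h and 209 ± 123 CPM at 75-84 h (SD, n = 10 each), a log2 change of -2.58 with an SE of 0.56 (edgeR, adjusted p = 0.05123). PT_v1_tr_07436 averaged 37.7 ± 19.3 CPM at 85-94 h and 191 ± 114 CPM at 75-84 h (SD, n = 10 each), a log2 change of -2.45 with an SE of 0.55 (edgeR, adjusted p = 0.06526). All 3 passed the test of the slope, with -0.23 log2 units per hour for PT_v1_tr_08844 (adjusted p = 0.004691), -0.22 for PT_v1_tr_08845 and -0.21 for PT_v1_tr_07436 (both adjusted p = 0.006681, edgeR). Levels halved in 4.36, 4.59 and 4.65 h in that order.

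PT_v1_tr_06304 was the only rise with the hour that passed in edgeR, while the DESeq2 test of the slope called 4 rises. Its values follow. Its lowest, median and highest levels were 341, 1124 and 1538 CPM at 85-94 h, against 124, 351 and 768 CPM at 75-84 h. The later window was higher in 8 of 10 embryos than any embryo of the earlier one; the libraries labelled 88 h, at 341 CPM, and 89 h, at 672 CPM, lay within the earlier range. Means were 1073 ± 378 CPM at 85-94 h and 400 ± 219 CPM at 75-84 h (SD, n = 10 each). The slope was 0.15 log2 units per hour (SE 0.021, adjusted p = 0.0001626, edgeR), a doubling in 6.82 h, while the log2 change between windows of 1.35 (SE 0.30) had an adjusted p of 0.05123 (edgeR) and did not pass.

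PT_v1_tr_03668 was abundant in both windows and had the shallowest of the 7 slopes. It had 792, 1449 and 3272 CPM as lowest, median and highest level at 85-94 h, against 1053, 2532 and 3305 CPM at 75-84 h, so the windows overlapped over most of their range. Its slope of -0.08 log2 units per hour (SE 0.017, adjusted p = 0.04453, edgeR) passed narrowly. It lost the call in 16 of 20 fits that left out 1 embryo (all but those without 83, 84, 87 or 94 h), with adjusted p up to 0.2518, with DESeq2 size factors (adjusted p = 0.2942) and with log2 of the total in the model (adjusted p = 0.1911, all edgeR).

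Calls of the other slopes were sturdier than those of the windows. PT_v1_tr_06304, PT_v1_tr_08847, PT_v1_tr_02264 and PT_v1_tr_08844 passed the slope test in all 20 fits without 1 embryo and in the 5 alternatives of scaling, filter, covariate and tool. PT_v1_tr_08845 lost it without the library labelled 76 h (adjusted p = 0.06905), and PT_v1_tr_07436 without that of 75 h (adjusted p = 0.05011) or 76 h (adjusted p = 0.06877, all edgeR). In the window test PT_v1_tr_02264 kept its call in 15 of 20 such fits, PT_v1_tr_08847 in 16 and PT_v1_tr_08845 in 3. PT_v1_tr_02264 lost it without the library labelled 89, 90, 91, 92 or 94 h (adjusted p up to 0.092) and PT_v1_tr_08847 without that labelled 90, 91, 92 or 94 h (adjusted p up to 0.06677), while PT_v1_tr_08845 kept it in fits without 82, 84 or 85 h alone (edgeR). Totals averaged lower at 85-94 h, a difference that did not pass (adjusted p = 0.124 over 8 measures, permutation test), and with log2 of the total in the model none of the 3 passed the window test (adjusted p = 0.2132, 0.2132 and 0.998, edgeR), with log2 changes of -4.86, -2.95 and -2.21. With that term 4 slopes passed, those of the 4 transcripts named first in this paragraph.

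Within each window the 5 steepest falls had steeper fitted slopes at the earlier ages, but the difference did not pass. For PT_v1_tr_02264 the slope was -0.14 log2 units per hour (SE 0.272) within 85-94 h and -0.58 (SE 0.0682, adjusted p = 0.001484, edgeR) within 75-84 h. For PT_v1_tr_08847 it was -0.13 (SE 0.181) within 85-94 h and -0.45 (SE 0.0784, adjusted p = 0.05931, edgeR) within 75-84 h. PT_v1_tr_06304 had slopes of 0.11 (SE 0.0521) within 85-94 h and 0.22 (SE 0.0672) within 75-84 h. A test of the difference in slope between the windows called 0 of 2863 transcripts, with 104 at an unadjusted p under 0.05, which is 3.63% (edgeR). The difference was 0.44 (SE 0.205, unadjusted p = 0.04216) for PT_v1_tr_02264 and 0.33 (SE 0.146, unadjusted p = 0.03495) for PT_v1_tr_08847, with an adjusted p of 1 for both (edgeR).

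Over the whole course the falling transcripts came late and left late. PT_v1_tr_08847 averaged 11.5 ± 8.71 CPM at 31-36 h (SD, n = 6), 2702 ± 1744 CPM at 43-51 h (SD, n = 9), 6219 ± 1337 CPM at 52-58 h (SD, n = 7) and 3129 ± 1658 CPM at 66-74 h (SD, n = 9). PT_v1_tr_08844 had its highest mean, 2914 ± 453 CPM, at 52-58 h (SD, n = 7), and was at 1227 ± 411 CPM at 66-74 h (SD, n = 9). PT_v1_tr_02264 had means of 4081 to 4333 CPM in the 3 windows from 52-74 h. Libraries differ in make-up on either side of 52 h: transcripts with 1 to 5 counts formed a median of 6.24% of those detected in embryos numbered 51 to 97 in the labels and 27.3% in embryos 1 to 50. Changes across 52 h therefore do not separate age from this difference.

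PT_v1_tr_06304 had no count in any embryo up to 58 h except the library labelled 24 h, at 848 CPM. That library is unlike its neighbours in age in this transcript and in others. PT_v1_tr_05162 was at 1618.5 CPM and PT_v1_tr_07080 at 12464 CPM in it, against means of 0 and 983 CPM at 25-30 h. PT_v1_tr_01204, at 14884 CPM, was close to its mean of 13698 CPM at 25-30 h. In the labels the library is numbered among embryos 51 to 97, with the later ages. At 66-74 h PT_v1_tr_06304 was at 0 in 6 of 9 embryos and at most 42.6 CPM, and its highest window mean was that of 85-94 h. PT_v1_tr_03668 had another course, with 115 ± 40.0 CPM at 1-4 h (SD, n = 4), its highest mean of 7010 ± 4735 CPM at 18-23 h (SD, n = 6) and 4431 ± 931 CPM at 66-74 h (SD, n = 9). At 95-120 h it was again at 3886 ± 297 CPM (SD, n = 3), above every embryo of 85-94 h.

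**Figure D2:**
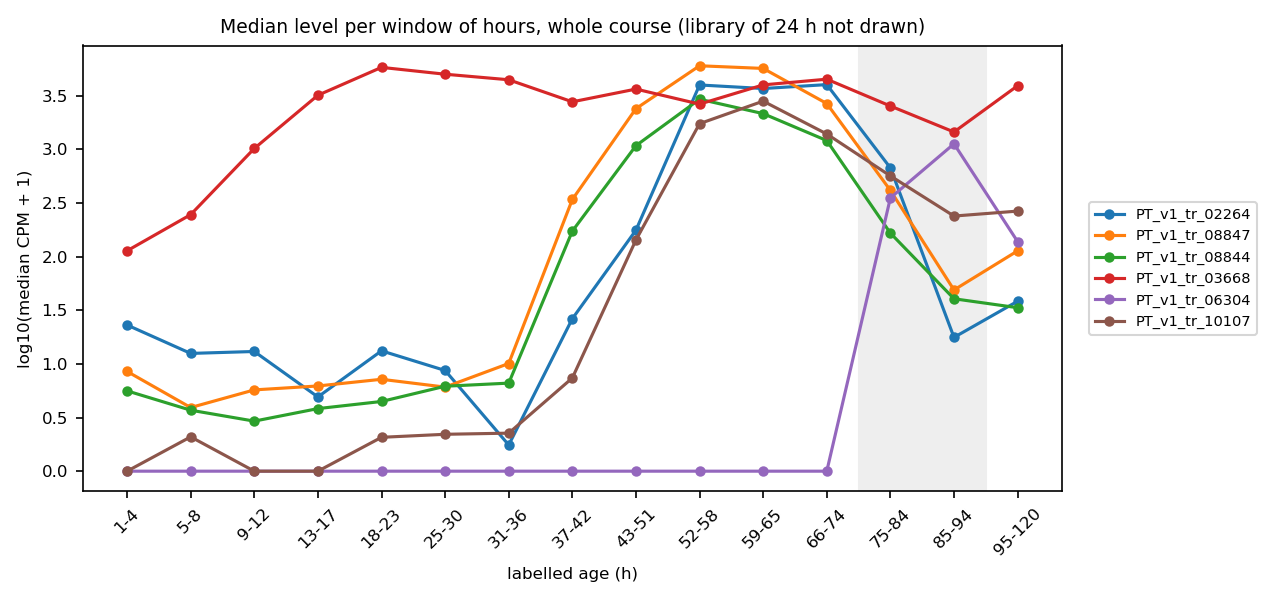
Median level of 6 transcripts in each window of hours over the whole course, as log10(median CPM + 1) against the labelled age; grey shading marks 75-94 h, and the library labelled 24 h is left out. PT_v1_tr_08847 and PT_v1_tr_08844 are highest at 52-58 h and low again at 85-94 h, and PT_v1_tr_06304 is at 0 up to 66-74 h and highest at 85-94 h.

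In the step before, 75-84 h over 66-74 h, which shares the 75-84 h embryos with the comparison above, values were as follows. PT_v1_tr_06304 had a log2 change of 5.31 (SE 1.01, adjusted p = 0.01213, edgeR) in that step, beside 1.35 in the later one. PT_v1_tr_08847 had -2.70 (SE 0.544, adjusted p = 0.02294, edgeR), beside -3.24. Transcripts of the trio had -2.77 for PT_v1_tr_08844, -2.80 for PT_v1_tr_08845 and -2.90 for PT_v1_tr_07436 (all adjusted p = 1.332e-05, edgeR), beside -2.58, -2.60 and -2.45. PT_v1_tr_02264 had -2.26 (SE 0.677, adjusted p = 0.2813, edgeR), beside -5.05, and PT_v1_tr_03668 had -1.06 (SE 0.18, adjusted p = 0.00216, edgeR), beside -0.72.

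Whether the steps differed was tested directly, and 0 of 4929 transcripts passed, with 66 at an unadjusted p under 0.05, which is 1.34% (edgeR). The difference, later step minus earlier step, was -2.74 for PT_v1_tr_02264 (SE 1.24, adjusted p = 0.9997), -3.98 for PT_v1_tr_06304 (SE 1.17, adjusted p = 0.5517) and -0.51 for PT_v1_tr_08847 (SE 0.94, adjusted p = 0.9997, all edgeR). Transcripts with the lowest p in this test were PT_v1_tr_00258 and PT_v1_tr_08121 among the negative differences, which had no count at 66-74 h. PT_v1_tr_00258 then stayed, with 101 ± 79.5 CPM at 85-94 h and 72.6 ± 51.8 CPM at 75-84 h (SD, n = 10 each). PT_v1_tr_08121 had counts in 3 of 10 embryos at 85-94 h, against 9 of 10 at 75-84 h, with means of 16.0 ± 30.1 CPM at 85-94 h and 73.4 ± 58.6 CPM at 75-84 h (SD, n = 10 each). PT_v1_tr_08510, among the positive differences, was at 10.3 ± 19.1 CPM at 85-94 h and 20.1 ± 41.0 CPM at 75-84 h (SD, n = 10 each), after 155 to 10041 CPM at 66-74 h. PT_v1_tr_06923 and PT_v1_tr_05556, the others named for a positive difference, and PT_v1_tr_09238, the other named for a negative one, were at 0 throughout 1 of these 2 windows. None of these differences passed (adjusted p from 0.07657 for PT_v1_tr_00258 and PT_v1_tr_08121 to 0.9883 for PT_v1_tr_08510, edgeR).

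Embryos outside the 20 gave values for the same transcripts. Embryos labelled 95, 97 and 120 h were set against the 9 of 66-74 h, and no embryo of either group is in the windows above. With all 3 later embryos 0 of 6739 transcripts passed, with 484 at an unadjusted p under 0.05, which is 7.18% (edgeR). Log2 changes with all 3 were -3.00 for PT_v1_tr_08844, -2.99 for PT_v1_tr_08845 and -2.85 for PT_v1_tr_07436 (all adjusted p = 0.5409), -2.02 for PT_v1_tr_08847 (adjusted p = 0.684), -1.84 for PT_v1_tr_02264 (adjusted p = 1) and 4.09 for PT_v1_tr_06304 (adjusted p = 0.5409, all edgeR). The library labelled 95 h went against its neighbours in age: PT_v1_tr_02264 was at 3521 CPM in it, against 31.3 CPM at 97 h and 37.4 CPM at 120 h, and PT_v1_tr_08847 was at 2139 CPM, against 44.7 and 112 CPM. PT_v1_tr_06304 was at 11.7 CPM in that library, against 326 CPM at 97 h and 137 CPM at 120 h. In all 3 the library labelled 95 h lay within the range of the embryos of 66-75 h.

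The library labelled 95 h was also left out. That choice was made after seeing that these same transcripts ran against its age, so the values without it are a description and no independent test of them. In that fit 29 of 7638 transcripts passed, which is 0.38%, with 4 higher (0.0524%) and 25 lower (0.327%) at 97 and 120 h (edgeR). All 3 of the trio were among the 25, with log2 changes of -5.56 for PT_v1_tr_08844 (adjusted p = 2.822e-08), -5.47 for PT_v1_tr_08845 and -5.38 for PT_v1_tr_07436 (both adjusted p = 5.293e-08, edgeR). PT_v1_tr_08847 was too (log2 change -5.54, adjusted p = 0.007287, edgeR). None of these 4 passed without the library labelled 97 h or without that labelled 120 h (adjusted p up to 0.8525, edgeR). PT_v1_tr_02264 (log2 change -7.13, adjusted p = 0.09224) and PT_v1_tr_06304 (log2 change 4.63, adjusted p = 0.3299, both edgeR) did not pass with 2 later embryos. The log2 change of PT_v1_tr_03668 was -0.37 (adjusted p = 0.5423, edgeR).

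Further transcripts came near without passing. PT_v1_tr_10107 averaged 245 ± 121 CPM at 85-94 h and 574 ± 198 CPM at 75-84 h (SD, n = 10 each), a log2 change of -1.31 with an SE of 0.32 (edgeR, adjusted p = 0.1493), and its slope was -0.11 log2 units per hour (adjusted p = 0.09972, edgeR). PT_v1_tr_10107 had its highest window mean, 3673 ± 3149 CPM, at 59-65 h (SD, n = 7), where the highest embryo was at 10689 CPM. At 66-74 h it was at 1452 ± 525 CPM (SD, n = 9). PT_v1_tr_07935 averaged 595 ± 96.4 CPM at 85-94 h and 946 ± 214 CPM at 75-84 h, and PT_v1_tr_08469 averaged 879 ± 313 CPM at 85-94 h and 1406 ± 461 CPM at 75-84 h (SD, n = 10 each). PT_v1_tr_02092, at 916 ± 164 CPM at 85-94 h and 1392 ± 290 CPM at 75-84 h, and PT_v1_tr_09898, at 940 ± 149 CPM at 85-94 h and 1401 ± 354 CPM at 75-84 h (SD, n = 10 each), were close in most embryos, with a ratio of the higher to the lower count of 1.05 in the median embryo and 1.41 at 90 h, and whether they share reads was not tested. Adjusted p of these 4 ran from 0.2358 for PT_v1_tr_07935 to 0.3007 for PT_v1_tr_08469 (edgeR).

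In the other direction the transcripts nearest to passing after PT_v1_tr_06304 were of moderate level. PT_v1_tr_10720 averaged 652 ± 248 CPM at 85-94 h and 330 ± 158 CPM at 75-84 h (SD, n = 10 each), a log2 change of 0.91 (edgeR, adjusted p = 0.4918). PT_v1_tr_05162 averaged 1288 ± 575 CPM at 85-94 h and 667 ± 348 CPM at 75-84 h (SD, n = 10 each), a log2 change of 0.88 (edgeR, adjusted p = 0.6346). PT_v1_tr_02144 averaged 257 ± 116 CPM at 85-94 h and 84.1 ± 77.5 CPM at 75-84 h (SD, n = 10 each), a log2 change of 1.52 (edgeR, adjusted p = 0.7859). Windows overlapped in all 3. The remaining 6 named for a higher level, PT_v1_tr_05593, PT_v1_tr_10323, PT_v1_tr_01398, PT_v1_tr_04106, PT_v1_tr_08365 and PT_v1_tr_05193, had log2 changes of 0.89 to 3.00 and an adjusted p of 0.9996 (edgeR). Of these PT_v1_tr_05593 had counts in 9 of 10 embryos at 85-94 h, with a mean of 59.9 ± 30.5 CPM, against 3 of 10 at 75-84 h, with 6.69 ± 12.5 CPM (SD, n = 10 each). PT_v1_tr_04106 and PT_v1_tr_10323 had the next lowest p among positive slopes, 0.18 and 0.31 log2 units per hour, and did not pass (adjusted p = 0.2968 and 0.4357, edgeR).

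**Figure D3:**
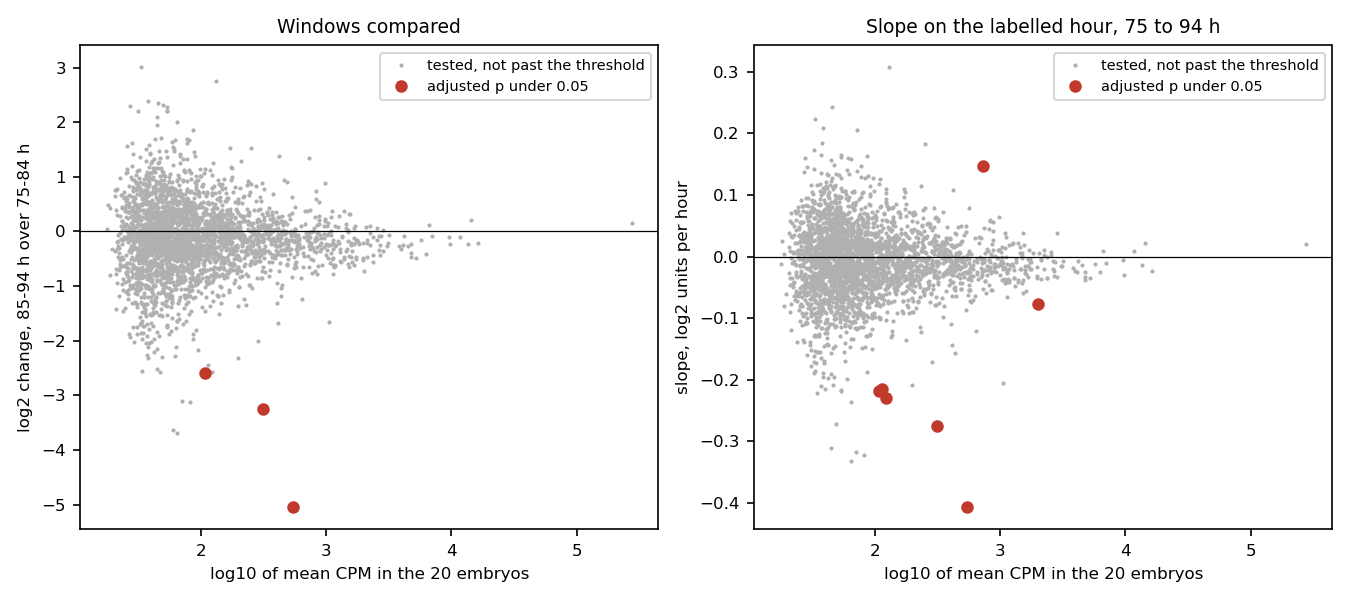
Log2 change of 85-94 h over 75-84 h (left) and slope in log2 units per hour (right) of the 2863 tested transcripts against log10 of their mean CPM in the 20 embryos; each point is 1 transcript and red points passed the adjusted p threshold of 0.05. The 3 red points at left are all below 0, and at right 6 lie below and 1 above, while the grey cloud widens towards low levels.

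How much change could have gone unseen was read from the intervals. The 95% interval of the log2 change lay within a 2-fold change in either direction for 363 of 2863 transcripts, or 12.7%, and within a 4-fold change for 1098, or 38.4%. Of the 263 transcripts with at least 500 CPM in the higher window, 194 (73.8%) lay within a 2-fold and 251 (95.4%) within a 4-fold change. Most abundant transcripts were thus bounded to a change of less than 4-fold between the windows, and most of low level were not. The median SE was 0.226 at 1000 CPM or more and 0.914 over all. For no transcript were the 2 windows free of overlap, which is 0% of those tested.

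The most abundant transcripts did not pass either test. PT_v1_tr_02502 held 294930 ± 71050 CPM at 85-94 h and 255220 ± 47104 CPM at 75-84 h (SD, n = 10 each), a log2 change of 0.16 with an SE of 0.16 (edgeR, adjusted p = 0.9996). Its 2 highest shares, 43.8% and 40.1%, were in the libraries labelled 88 and 89 h. PT_v1_tr_07080, PT_v1_tr_01204, PT_v1_tr_02622 and PT_v1_tr_04659 followed, with means of 11442 to 15715 CPM at 85-94 h and 11895 to 17011 CPM at 75-84 h, and log2 changes of -0.24 to 0.20.

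Some transcripts were counted in 1 window only. With counts in at least 3 embryos, 71 were seen only at 85-94 h and 236 only at 75-84 h. Both are small parts of the 9758 transcripts with a count in the 20 embryos. Summed totals were 4588126 counts at 85-94 h and 6221128 counts at 75-84 h, and the part of this depth gap in these numbers was not tested. PT_v1_tr_06923 had 140 counts in 5 embryos at 85-94 h and 0 at 75-84 h, at least 63.3-fold higher against a floor of 3 counts over the window. PT_v1_tr_09238 had 0 counts at 85-94 h and 400 in 7 embryos at 75-84 h, at least 98.3-fold lower. PT_v1_tr_03595 and PT_v1_tr_06646 were likewise at least 53.8-fold and 48.8-fold higher in the pooled counts. Each had counts in only 3 embryos at 85-94 h, where its median was 0 CPM. PT_v1_tr_05211 and PT_v1_tr_09699 were at least 85.1-fold and 58.0-fold lower, with counts in 6 and 7 embryos at 75-84 h. These bounds cover counting error only, and none of the 6 passed the filter of the window test. PT_v1_tr_06923 had counts again at 66-74 h, in 5 of 9 embryos with up to 42.7 CPM, and PT_v1_tr_09238 had 73.7 CPM in the embryo of 97 h.

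The spread between embryos was set beside that of ERCC spike-ins, RNA added to each sample, whose spread is technical alone. At a mean of 100 to 300 counts the median SD of the log2 level around the window mean was 0.905 for 394 transcripts, beside 0.486 for 7 spike-ins. At 300 to 1000 counts it was 0.614 for 172 transcripts, beside 0.47 for 6 spike-ins, and from 1000 counts up 0.477 for 47 transcripts, beside 0.356 for 10. Of the transcripts 11.7%, 7.56% and 21.3% lay above every spike-in of their range, in order of rising count. Over these 3 ranges the medians had a ratio of 1.61 (jackknife SE over embryos 0.185), but more of the transcripts than of the spike-ins are at the low counts. Below 100 counts both spread more widely. Medians were 1.97 for 2355 transcripts and 1.51 for 15 spike-ins at 10 to 30 counts. At 30 to 100 counts they were 1.87 for 1139 transcripts and 1.49 for 14 spike-ins. Spike-ins were scaled to their own sum, and transcripts by TMM. The spread of the transcripts still holds the hour within the window. The 6 transcripts with the widest spread at 100 CPM or more were PT_v1_tr_02495, PT_v1_tr_07260, PT_v1_tr_10496, PT_v1_tr_05742, PT_v1_tr_09081 and PT_v1_tr_00947, with SDs of 2.98 to 3.39. PT_v1_tr_02495 was at 0, 185 and 2123 CPM as lowest, median and highest at 85-94 h, against 0, 537 and 980 CPM at 75-84 h. PT_v1_tr_09081 was at 0, 128 and 2135 CPM at 85-94 h, against 0, 1663 and 3262 CPM at 75-84 h. Each of the 6 was at 0 in at least 1 embryo of each window, with highest levels of 324 to 2135 CPM at 85-94 h and 741 to 3262 CPM at 75-84 h. None passed the window test (adjusted p = 0.9996 for each, edgeR). They were picked for a wide spread within windows, which makes that test hard to pass, so nothing is drawn from this.

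**Figure D4:**
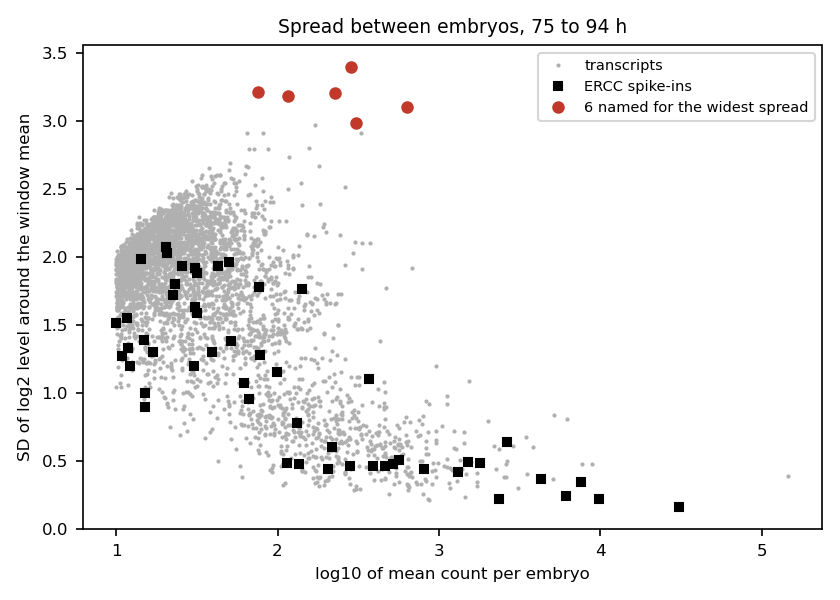
SD of the log2 level around the window mean over the 20 embryos, against log10 of the mean count per embryo; grey points are transcripts, black squares ERCC spike-ins and red points the 6 transcripts named for the widest spread. Spread narrows with the count in both, and the red points, at 2.98 to 3.39, lie above every spike-in.

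None of 8 measures of whole libraries passed after adjustment. At an equal depth of 247000 counts 3665 ± 635 transcripts were detected at 85-94 h and 4253 ± 586 at 75-84 h (SD, n = 10 each; p = 0.0466, adjusted p = 0.124 over 8 measures, two-sided permutation test). Transcripts with 1 to 5 counts formed 6.87% ± 0.743 of those detected at 85-94 h and 5.85% ± 0.764 at 75-84 h (SD, n = 10 each; p = 0.00695, adjusted p = 0.0556, permutation test). Transcript counts per spike-in count were 7.28 ± 1.79 at 85-94 h and 7.72 ± 0.821 at 75-84 h (SD, n = 10 each; adjusted p = 0.526, permutation test). Without PT_v1_tr_02502 they were 5.07 ± 0.939 at 85-94 h and 5.76 ± 0.810 at 75-84 h (SD, n = 10 each; adjusted p = 0.193, permutation test). Totals averaged 458813 ± 156125 counts at 85-94 h and 622113 ± 157238 counts at 75-84 h (SD, n = 10 each; adjusted p = 0.124, permutation test).

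The share of PT_v1_tr_02502 was 29.5% ± 7.10 at 85-94 h and 25.5% ± 4.71 at 75-84 h (SD, n = 10 each; adjusted p = 0.265, permutation test). Without the libraries labelled 88 and 89 h, a choice made after seeing them, the difference of 3.97 percentage points was 0.869 (adjusted p = 0.746, permutation test). The same choice widened the differences that use spike-ins, which still did not pass. Transcript counts per spike-in count went from a difference of -0.436 to -0.991 (adjusted p = 0.0726, permutation test). Without PT_v1_tr_02502 it went from -0.691 to -0.814, and the spike-in share from 0.907 to 1.53 percentage points (both adjusted p = 0.0726, permutation test). Spike-ins formed 12.5% ± 2.12 of spike-in and transcript counts at 85-94 h and 11.6% ± 1.20 at 75-84 h (SD, n = 10 each; adjusted p = 0.342, permutation test). The 100 most abundant transcripts held 57.7% ± 4.75 of counts at 85-94 h and 56.1% ± 3.25 at 75-84 h (SD, n = 10 each; adjusted p = 0.464, permutation test).

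**Figure D5:**
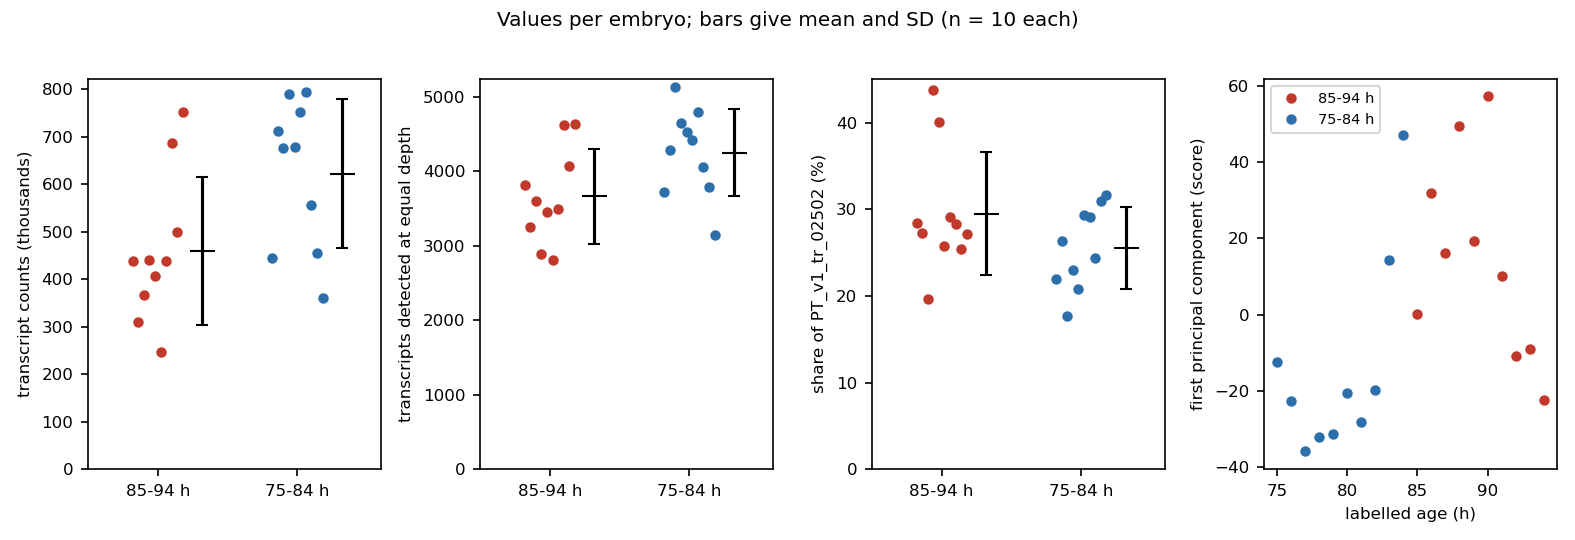
Transcript counts (in units of 1000), transcripts detected at equal depth and share of PT_v1_tr_02502 (%) per embryo, with 1 point per embryo and the mean and SD of each window (n = 10 each), and the score on the first principal component against the labelled age in hours. Windows overlap in all 4 panels, and the embryos of 84, 88 and 90 h have the highest scores.

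The main direction of difference among the 20 embryos was related to depth and detection, and its relation to the hour was not firm. The first principal component of log2 levels held 9.27% of the variance. Its Pearson correlation with the labelled hour was 0.461 (p = 0.0413, adjusted p = 0.124 over 9 relations, permutation test, n = 20). Spearman's rho was 0.552 (p = 0.013, adjusted p = 0.039, permutation test, n = 20). Without the 2 embryos farthest from the median hour r was 0.588. At a prior count of 0.5 r was 0.423 (p = 0.0637), and at a prior count of 5 it was 0.484 (p = 0.0308, permutation tests). With the log2 transcript total r was -0.882 and rho -0.865, and with the transcripts detected at equal depth r was -0.94 and rho -0.935 (all p = 1e-05, the smallest 100000 resamples can give, adjusted p = 4.5e-05, n = 20). These r were -0.84 without the 2 embryos farthest from the median log2 total and -0.928 without the 2 farthest from the median detection. Scores were 14.2 ± 26.2 at 85-94 h and -14.2 ± 25.9 at 75-84 h (SD, n = 10 each; adjusted p = 0.0399 over 3 components, permutation test), and the part of the total in this difference was not tested. The embryos of 92-94 h scored -22.6 to -9.02, within the range of the 75-84 h embryos. The second and the third component, with 6.78% and 6.33% of the variance, also differed between the windows. Scores on the second were 12.0 ± 28.0 at 85-94 h and -12.0 ± 14.7 at 75-84 h (SD, n = 10 each; adjusted p = 0.0399, permutation test), and on the third 10.2 ± 28.7 at 85-94 h and -10.2 ± 13.3 at 75-84 h (SD, n = 10 each; adjusted p = 0.0459, permutation test). Their r was -0.229 and 0.101 with the log2 total and -0.0671 and -0.0137 with detection at equal depth (adjusted p from 0.501 to 0.957, permutation tests, n = 20), and with the hour 0.33 (adjusted p = 0.278) and 0.423 (adjusted p = 0.134, permutation tests, n = 20).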

How the data were processed

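Per the labels' protocols, an embryo was frozen each hour and its RNA, taken up in Trizol, was amplified by CEL-Seq. The authors deposited raw whole-number counts for each transcript and embryo, and all 97 columns were matched to a sample by title. HTSeq 0.5.4p3, Bowtie2 2.1.0 and CASAVA 1.8 are named per the submitters' processing notes; their roles, settings, reference and strand use are not given in the sources used here. No molecular identifiers are named, so counts are reads that can hold amplification copies, and the floors of 3 counts cover counting error only. The 95% intervals of the log2 change used the SE of the edgeR fit, which holds the spread between embryos as well.

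Library sizes and tests left out 92 ERCC spike-ins (4.43% of all counts in the 20 embryos) and 5 summary rows (not aligned 60.5%, no feature 2.46%, the others 0). No pair of embryos had identical counts. Replicates are single embryos of successive hours with no label of batch or parentage. P-values of the window test therefore rest on the spread between these libraries, which holds the hour within a window and technical spread as well. All tests treated the embryos as independent, and shared parents could not be taken into account.

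Windows were tested by quasi-likelihood in edgeR 4.0.16 under R 4.3.3 (robust, TMM, filterByExpr), with Benjamini-Hochberg adjustment over all transcripts tested. SEs were taken from the log2 change and its F statistic. Slopes used the labelled hour over the same 20 embryos. CPM were scaled to each embryo's transcript counts, without TMM. For principal components the 2000 most variable transcripts were taken, as log2 CPM with a prior count of 2. Single values had two-sided permutation tests with 100000 resamples (Python 3.11.15 with pandas 2.3.3, numpy 2.4.6, scipy 1.17.1 and, for plots, matplotlib 3.10.9). Detection at equal depth is the expected number after thinning to 247000 counts.

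Members, the rule for named transcripts and the tests were chosen with earlier results of these data known. Named were up to 10 transcripts in each direction of the window comparison with at least 20 CPM (filled up with the lowest unadjusted p where fewer passed), 3 in each direction for the slope and for the difference between steps, the 5 most abundant, the 6 with the widest spread and 3 in each direction seen in 1 window only. Slopes that passed beyond these were named after their values were seen. Lists of genes by function were not used, because identifiers carry no names.

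Simulated counts, 200 transcripts changed among the rest, were used to check each test. The window test recovered 2.5% at a 2-fold, 23% at a 4-fold and 73.5% at a 16-fold change, with 0, 3 and 6 unchanged transcripts called of 2863. The slope test recovered 7.5% at a 4-fold and 34.5% at a 16-fold change over the 20 embryos, with 1 and 5 unchanged called. At 16-fold, 95-120 h against 66-74 h recovered 36.5% (73 transcripts) with 18 unchanged called, and the difference between steps 25% (50 transcripts) with 20. In both of these tests the share of unchanged transcripts among the simulated calls was well above the threshold of 0.05. Their adjusted p should be read with that limit. Alternatives were other scalings (DESeq2 size factors, total counts, spike-ins), DESeq2 1.42.0 and limma 3.58.1 tests, other filters, the library total as a covariate, and fits without border hours or single embryos.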

Additional observations from a re-analysis of the deposited data

Results flagged for a closer look

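In each window of 10 embryos the highest and lowest embryo were compared with the rest, on log2 CPM for transcripts. An embryo was singled out where its gap to the nearest of the others exceeded Dixon's 95% critical share of the range. Of 106 such sets 14 held one. The 106 include sets with no count in any of the 10 embryos, which could hold none, and transcripts with near-equal counts. The 14 are therefore not set against a chance rate. At 85-94 h the library labelled 89 h was lowest in PT_v1_tr_05593, at 0 CPM, in PT_v1_tr_08845, at 4.91 CPM, and in PT_v1_tr_07436, at 2.45 CPM, and highest in transcript counts per spike-in count, at 11.7. In the same window PT_v1_tr_10107 was lowest at 87 h with 43.5 CPM, PT_v1_tr_02092 at 90 h with 587 CPM and PT_v1_tr_07080 at 88 h with 7664 CPM. At 75-84 h PT_v1_tr_02144 and PT_v1_tr_08121 were lowest at 83 h with 0 CPM, and PT_v1_tr_03668 was lowest at 83 h with 1053 CPM. PT_v1_tr_02622 was lowest at 84 h with 9745 CPM, PT_v1_tr_09081 at 84 h with 0 CPM and PT_v1_tr_00258 at 79 h with 0 CPM. The library labelled 84 h also had the lowest score on the third principal component, -39.6.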

How the results depend on the processing

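The 3 window calls (0 higher, 3 lower) were 21 with the DESeq2 test, 36 in a fit with 66-74 h, 6 without the border hours, 1 with a count in at least 5 embryos required, 0 with the library total as a covariate and 1750 with no filter. Of those 1750, 1692 were counted in at most 5 embryos. Leaving out 1 embryo gave 0 to 6 calls: 0 without the library labelled 90, 91, 92 or 94 h, 1 without 89 h and 6 without 82 or 84 h. DESeq2 size factors gave 1 higher and 2 lower, limma voom 1 and 1, and no border hours 1 and 5. The median log2 change of all tested transcripts was -0.119 with TMM, -0.038 with total counts, 0.050 with DESeq2 size factors and -0.136 with spike-ins.

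The 7 slope calls were 26 with DESeq2, 4 with the library total as a covariate, 1066 with no filter, 0 within 85-94 h alone, 1 within 75-84 h alone, and 4 to 8 without 1 embryo, with 4 without the library labelled 76 h. For 95-120 h against 66-74 h the count of 0 was 19 with no filter, 1 without the library labelled 72 h, and 0 to 29 without 1 later embryo (29 without that labelled 95 h, 2 without that labelled 97 h). The difference between steps gave 570 with no filter in place of 0. The correlation of the first component with the hour was 0.423 (p = 0.0637, permutation test) at a prior count of 0.5. The cause of these shifts was not tested. No result changed sign past its threshold, and the 7 named slopes kept their direction in all 28 fits each. No paired analysis was possible because replicate numbers only follow the hour within each window. Depth limits transcripts of low level most.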
